A study of Mus musculus with 20 samples.

Results

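The interferon regulatory factors are a family of transcription factors, of which the 8 genes Irf1, Irf2, Irf3, Irf4, Irf5, Irf7, Irf8 and Irf9 are described here in mouse liver. Members were chosen by name: every array probe whose gene symbol was one of the 8 was taken, and a probe was measured if its detection p-value was under 0.05 on at least 5 of the 20 arrays. The family had 15 of the 45281 probes, and 13 of them, from 7 genes, passed this filter, as did 18285 probes in all, which covered 10362 named genes. Irf4 had 1 probe, which was detected on 0 of 20 arrays, and the fifth Irf1 probe was also detected on 0 of 20. Irf1 had 4 measured probes, Irf3 had 3, Irf9 had 2, and Irf2, Irf5, Irf7 and Irf8 had 1 each.

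The samples were livers of male mice on a C57BL/6 background, 14 weeks old, all on a high fat diet. The 4 groups of 5 arrays were ApoE-/- mice given an antagonist of Toll-like receptors 7 and 9, untreated ApoE-/- mice, wild-type mice given the antagonist, and untreated wild-type mice. The antagonist was injected into the peritoneum at 15 mg/kg, 3 times a week, between weeks 6 and 11, and tissue was taken at week 14. Untreated mice received no antagonist, and a vehicle injection is not mentioned. ApoE-/- mice lack apolipoprotein E in every tissue and ate a diet with 21% fat and 0.15% cholesterol, while wild-type mice ate one with 35% fat and 0.03% cholesterol, so that genotype and diet cannot be told apart. The antagonist is not identified further in the labels. They number the replicates but do not tie each one to a separate mouse, and the p-values below therefore refer to variation among arrays, some of which could be technical.

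As background, Toll-like receptors in endosomes and other nucleic acid sensors signal through kinases that phosphorylate IRF3, IRF5 and IRF7, which then enter the nucleus and switch on interferon and cytokine genes. Interferon in turn acts on its receptor through JAK kinases and STAT proteins, and IRF9 is the DNA-binding part of a complex with STAT2 that binds the interferon-stimulated response element (ISRE). IRF1 is itself induced by interferon gamma through a gamma-activated site (GAS), IRF2 can compete with it for DNA, and IRF8 and IRF4 bind composite sites with ETS partners such as PU.1. In liver, IRF8 and IRF5 are known mainly from macrophages and other myeloid cells, whereas IRF2 and IRF3 are expressed widely.

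Promoter windows are shown for Irf1, Irf5, Irf7 and Irf8, whose brightest probes rose with antagonist in both genotypes. That of Irf2, which holds the most motif matches, is shown because Irf2 did not pass a test. Irf3, whose brightest probe also rose, is not shown. RefSeq (GRCm38.p6) gave 11 windows for the 8 genes, each of 300 bases from 250 before to 50 after an annotated start. The sequences run 5′ to 3′ on the gene's strand, and capitals mark matches to the GAS, the ISRE core, an ETS-IRF composite or the NF-kB consensus. For Irf1 and Irf8, which have more than 1 annotated start, the upstream one is shown.
Irf1, chr11:53769764-53770063 (+): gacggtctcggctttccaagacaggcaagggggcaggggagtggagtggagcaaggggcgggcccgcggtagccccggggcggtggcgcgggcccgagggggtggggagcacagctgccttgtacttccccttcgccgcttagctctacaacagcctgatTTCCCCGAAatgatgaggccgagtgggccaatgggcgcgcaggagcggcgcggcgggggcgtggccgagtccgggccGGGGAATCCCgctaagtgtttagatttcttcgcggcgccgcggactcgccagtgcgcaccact
Irf5, chr6:29526375-29526674 (+): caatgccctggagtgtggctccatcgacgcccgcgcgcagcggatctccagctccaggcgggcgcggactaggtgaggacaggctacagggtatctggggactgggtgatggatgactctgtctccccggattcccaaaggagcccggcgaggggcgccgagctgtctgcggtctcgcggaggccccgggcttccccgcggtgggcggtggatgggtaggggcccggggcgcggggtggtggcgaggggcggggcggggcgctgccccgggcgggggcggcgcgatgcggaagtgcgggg
Irf7, chr7:141266375-141266674 (-): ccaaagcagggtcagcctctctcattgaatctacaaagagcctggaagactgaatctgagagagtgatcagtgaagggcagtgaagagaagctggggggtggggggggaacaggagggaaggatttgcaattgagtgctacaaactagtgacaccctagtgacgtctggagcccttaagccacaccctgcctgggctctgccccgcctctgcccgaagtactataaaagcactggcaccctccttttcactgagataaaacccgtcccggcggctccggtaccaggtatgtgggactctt
Irf8, chr8:120736108-120736407 (+): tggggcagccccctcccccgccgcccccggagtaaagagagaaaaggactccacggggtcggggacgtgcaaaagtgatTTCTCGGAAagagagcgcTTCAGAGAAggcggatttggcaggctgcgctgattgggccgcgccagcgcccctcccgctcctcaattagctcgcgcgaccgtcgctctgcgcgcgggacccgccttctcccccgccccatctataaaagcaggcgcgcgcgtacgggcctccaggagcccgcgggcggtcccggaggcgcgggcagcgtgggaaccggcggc
Irf2, chr8:46739495-46739794 (+): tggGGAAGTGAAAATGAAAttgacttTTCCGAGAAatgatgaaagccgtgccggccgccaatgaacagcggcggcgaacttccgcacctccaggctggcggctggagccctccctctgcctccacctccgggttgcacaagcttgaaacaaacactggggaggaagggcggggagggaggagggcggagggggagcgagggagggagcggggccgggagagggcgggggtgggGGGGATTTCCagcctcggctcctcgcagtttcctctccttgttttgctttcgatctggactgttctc

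The motifs were searched on both strands and differed in how common they are among all 32851 windows. The GAS, TTCNNNGAA, lay in 8.3% of windows and was found once in Irf1, 90 bases before the start, and as 2 copies in Irf8 (positions -171 and -153). Irf2 also held a GAS at -224. The ISRE core, searched as GAAA, any 2 bases and GAAA again, lay in 3.44% of windows and in 1 of the 11 family windows, that of Irf2, at -241. It overlapped the family's 1 ETS-IRF composite, searched as GGAA, any 2 bases and GAAA, which began at -247 and lay in 2.72% of windows. The NF-kB consensus was present in 8.46% of windows and in those of Irf1, as GGGGAATCCC at -13, and Irf2, as GGGGATTTCC at -17. A TATA box, TATAAA, not in capitals above, stood in 13.6% of windows and in those of Irf4, Irf7 and Irf8. These letters were not found in the windows of Irf3, Irf5 or Irf9. The Irf5 window begins at 29526375, inside the gene, whose annotated 5′ end is at 29526130, and the sequence before that end was not searched. A match describes the sequence and is not a measured binding site.

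**Figure D1:**
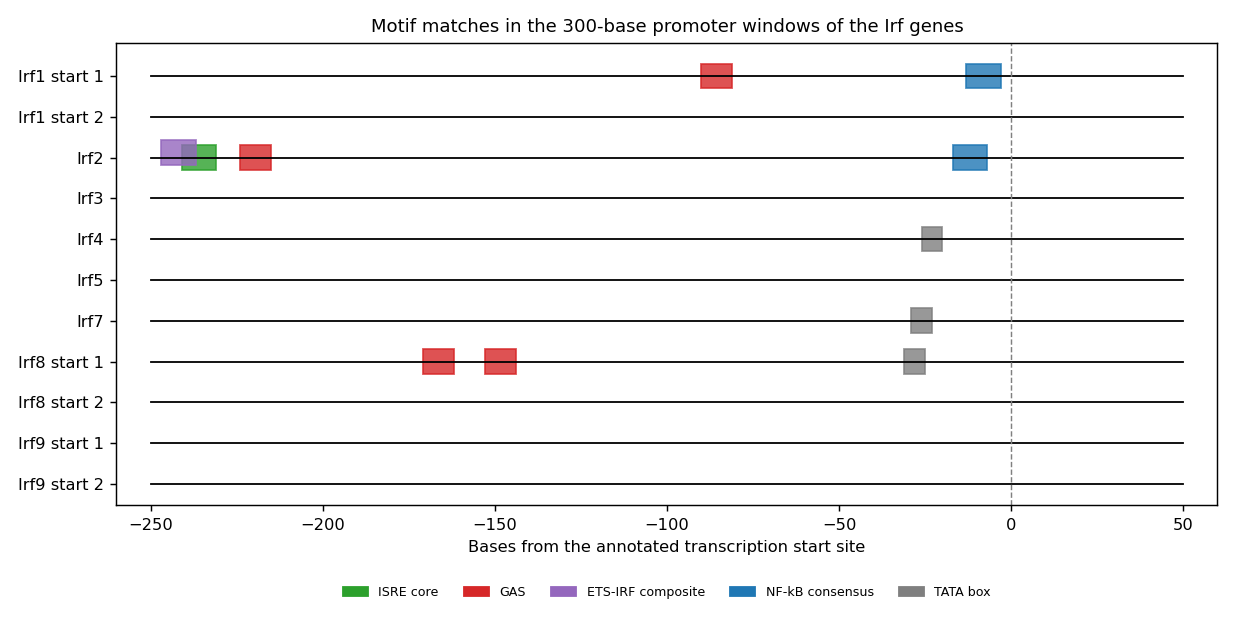
Motif matches (coloured boxes) in the 11 promoter windows of the 8 genes, drawn from 250 bases before to 50 bases after the annotated start site (dashed line). Irf1 and Irf8 hold GAS matches in their upstream windows, and Irf2 holds the ISRE core, which its ETS-IRF composite overlaps.

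The quality of the arrays was read from detection and from the deleted gene. The number of probes detected on an array ran from 15816 to 17598 in treated ApoE-/-, from 15530 to 16660 in untreated ApoE-/-, from 16051 to 18748 in treated wild-type and from 14436 to 16032 in untreated wild-type livers. The Apoe probe read 5.26 to 6.88 on the normalised log2 scale over the ApoE-/- arrays and 13.60 to 14.61 over the wild-type arrays, without overlap. Of 9 hepatocyte markers all 9 were measured, and their summed signal overlapped between all groups. It was 167500 to 181900 in treated ApoE-/-, 171700 to 182000 in untreated ApoE-/-, 163800 to 185800 in treated wild-type and 155700 to 179900 in untreated wild-type livers. Quantile normalization gives every array the same set of values, so for bright probes such as these the overlap says little about array quality or hepatocyte content.

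In both genotypes the antagonist groups had higher signal for Irf1, Irf5, Irf7 and Irf8 than the untreated groups. In ApoE-/- livers 6 of the 13 measured family probes passed the test upward and 0 downward, against 14.2% upward and 14.9% downward of all 18285 probes (29.1% either way). In wild-type livers 6 passed upward and 1 downward, against 18.9% and 18.4% (37.3% either way). The test was a limma linear model over all probes with Benjamini-Hochberg adjustment and a threshold of 0.05, and changes are differences of log2 signal. The upward probes covered the same 5 genes in both genotypes, Irf1 with 2 probes and Irf3, Irf5, Irf7 and Irf8 with 1 each. Ranges of treated and untreated arrays did not overlap, with the treated higher, for 5 family probes in ApoE-/- (9.19% of all probes, with 8.9% lower) and for 6 in wild type (14.4%, with 12.8% lower).

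How the calls of all probes split by direction depended on the scaling of the arrays. After quantile normalization 48.7% of the called probes were higher with antagonist in ApoE-/- and 50.6% in wild type, but 66% and 85.5% when arrays were scaled to equal medians. That scaling moved the median of all probes by 0.08 in ApoE-/- and 0.25 in wild type on the log2 scale. Relative to the median of all probes under it, Irf1 probe 1 rose by 1.14 in ApoE-/- and 1.52 in wild type, Irf5 by 0.93 and 1.22, Irf7 by 1.20 and 1.54, and Irf8 by 0.47 and 1.42.

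**Figure D2:**
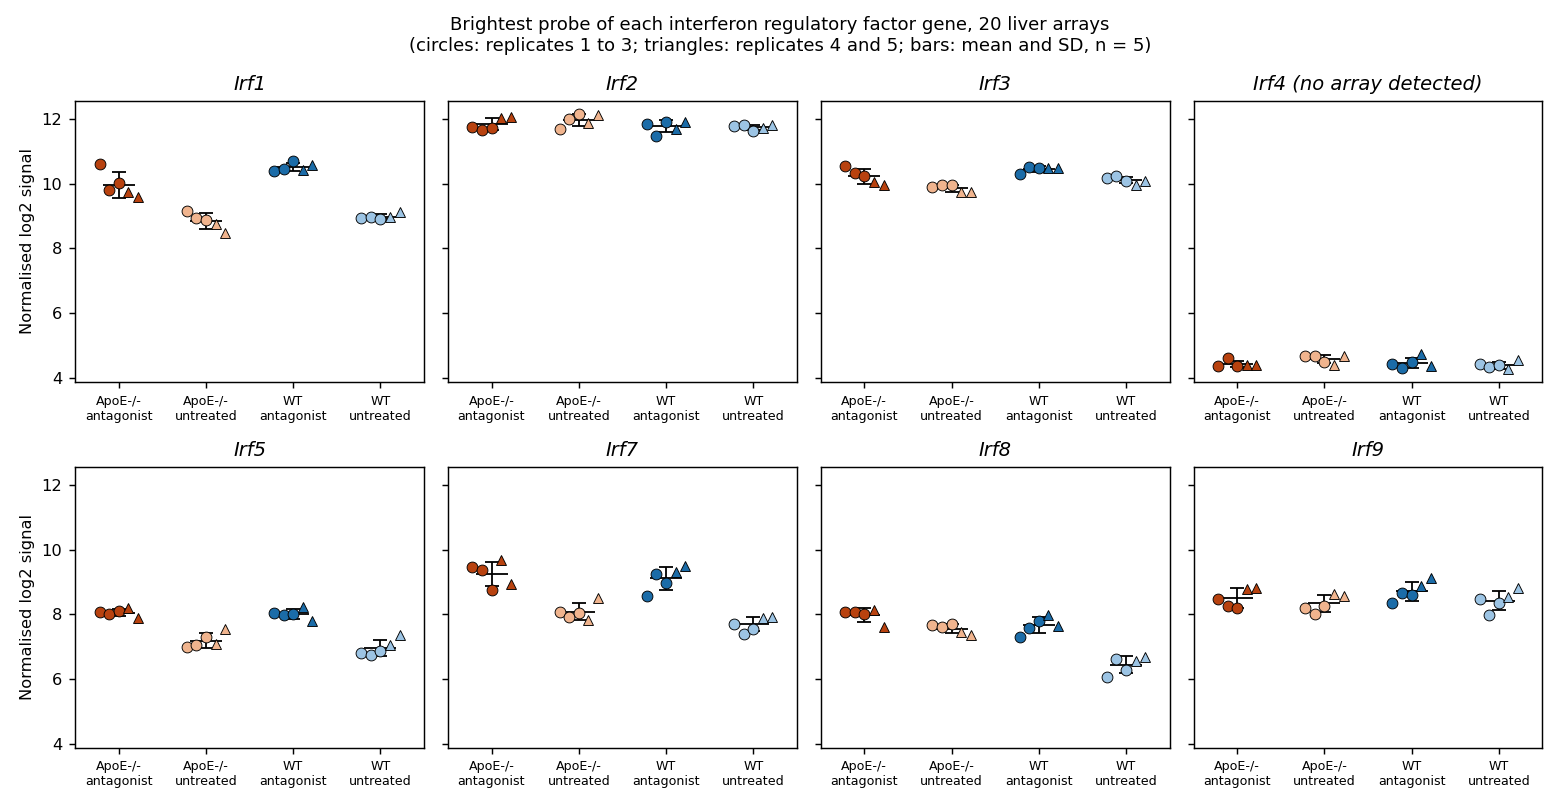
Normalised log2 signal of the probe with the highest mean for each of the 8 genes on 20 arrays, by group, with circles for replicates 1 to 3, triangles for replicates 4 and 5, and bars for mean and SD (n = 5). Irf1, Irf5 and Irf7 lie higher with antagonist in both genotypes with no overlap, Irf8 does so in wild type, and Irf4 stays near background in all groups.

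Irf1, an interferon-induced activator of antigen presentation and guanylate-binding protein genes, rose in both genotypes on its brighter probes. Its brightest probe (ILMN_2834777) read 10.62, 9.82, 10.02, 9.73 and 9.58 in treated ApoE-/- livers, against 9.15, 8.94, 8.87, 8.76 and 8.48 in untreated ones. In treated wild-type livers it read 10.41, 10.45, 10.69, 10.41 and 10.58, against 8.93, 8.98, 8.92, 8.96 and 9.12 in untreated ones. Treated and untreated arrays did not overlap in either genotype, and treated ApoE-/- replicate 1 was the highest of its group. The rise was 1.11 ± 0.15 in ApoE-/- (log2 ± SE, 2.16-fold, adjusted p = 1.87e-05) and 1.53 ± 0.15 in wild type (2.88-fold, adjusted p = 1.27e-07). The second probe (ILMN_2599782) rose by 0.73 ± 0.16 in ApoE-/- (1.66-fold, adjusted p = 0.00149) and by 1.20 ± 0.16 in wild type (2.30-fold, adjusted p = 4.49e-06).

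The dimmer Irf1 probes did not pass in either genotype. Probe 3 was detected on 11 of 20 arrays and differed by 0.11 in ApoE-/- (adjusted p = 0.683) and 0.26 in wild type (adjusted p = 0.236). Probe 4 was detected on 8 of 20 arrays, including 4 of 5 treated and 0 of 5 untreated wild-type livers, and differed by 0.09 (adjusted p = 0.763) and 0.35 (adjusted p = 0.132). The positions of the probes within the transcripts were not used here, so probes that read different transcript forms cannot be told from probes of different quality.

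Irf7, which amplifies type I interferon production once interferon has induced it, read 9.45, 9.37, 8.75, 9.66 and 8.95 in treated ApoE-/- livers, against 8.08, 7.91, 8.04, 7.83 and 8.51 in untreated ones. In treated wild-type livers it read 8.56, 9.25, 8.97, 9.31 and 9.48, against 7.70, 7.40, 7.55, 7.87 and 7.91 in untreated ones. All 5 treated arrays lay above all 5 untreated ones in each genotype, with the spread wider among treated arrays. It rose by 1.16 ± 0.19 in ApoE-/- (2.24-fold, adjusted p = 8.45e-05) and by 1.43 ± 0.19 in wild type (2.69-fold, adjusted p = 3.69e-06).

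Irf5, an activator of inflammatory cytokine genes in macrophages downstream of MyD88, read 8.07, 8.01, 8.10, 8.21 and 7.88 in treated ApoE-/- livers, against 6.98, 7.04, 7.30, 7.08 and 7.54 in untreated ones. In treated wild-type livers it read 8.05, 7.98, 8.01, 8.21 and 7.79, against 6.80, 6.73, 6.88, 7.05 and 7.36 in untreated ones. Replicate 5 was the lowest treated and the highest untreated array in both genotypes, and the ranges did not overlap. It rose by 0.86 ± 0.13 in ApoE-/- (1.82-fold, adjusted p = 3.91e-05) and by 1.05 ± 0.13 in wild type (2.06-fold, adjusted p = 1.67e-06).

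Irf8, a factor needed for the development of monocytes and some dendritic cells, read 8.07, 8.06, 8.02, 8.13 and 7.61 in treated ApoE-/- livers, against 7.67, 7.61, 7.71, 7.47 and 7.35 in untreated ones. In treated wild-type livers it read 7.30, 7.57, 7.81, 7.97 and 7.65, against 6.06, 6.62, 6.28, 6.57 and 6.68 in untreated ones. The groups stood apart in wild type, while in ApoE-/- treated replicate 5 fell among the untreated arrays. The rise was 0.42 ± 0.14 in ApoE-/- (1.34-fold, adjusted p = 0.0298) and 1.22 ± 0.14 in wild type (2.32-fold, adjusted p = 8.16e-07). The ApoE-/- call was lost (adjusted p up to 0.0779) without any 1 of treated replicates 1 to 4 or untreated replicates 4 and 5. With slide as a fixed block the rise was 0.27 (adjusted p = 0.244). Slides are known for replicates 4 and 5 only, and untreated ApoE-/- replicates 4 and 5 lay alone on theirs. That block therefore leaves their level out of the contrast.

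The arrays were read from their column names as 2 batches, replicates 1 to 3 and replicates 4 and 5. Within batch 1 and batch 2 the ApoE-/- rise was 1.17 and 1.03 for Irf1 probe 1, 0.95 and 0.73 for Irf5, 1.18 and 1.14 for Irf7, and 0.39 and 0.46 for Irf8. Of these the Irf5 rise in batch 2 (adjusted p = 0.0872) and both Irf8 rises (adjusted p = 0.0874 and 0.191) did not pass. In wild type the within-batch rises were 1.57 and 1.46 for Irf1 probe 1, 1.21 and 0.80 for Irf5, 1.37 and 1.50 for Irf7, and 1.24 and 1.18 for Irf8, and all passed.

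Leaving out the background correction made several rises over 1.5 times smaller, while each still passed. In ApoE-/- Irf1 probe 2 then rose by 0.46 (adjusted p = 0.00214) and Irf5 by 0.57 (adjusted p = 1.17e-05). In wild type Irf5 rose by 0.66 (adjusted p = 6.64e-07) and Irf8 by 0.69 (adjusted p = 1.29e-06). The authors' processed values gave 0.48 for Irf1 probe 2 in ApoE-/-, and 0.70 for Irf5 and 0.73 for Irf8 in wild type.

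Irf3, the widely expressed factor activated by TBK1, had 3 probes that did not move alike. Probe 1 (ILMN_2664319) read 10.56, 10.32, 10.25, 10.04 and 9.96 in treated ApoE-/- livers, against 9.89, 9.96, 9.95, 9.76 and 9.73 in untreated ones, and 10.29, 10.53, 10.48, 10.47 and 10.49 in treated wild-type livers, against 10.18, 10.25, 10.08, 9.98 and 10.10 in untreated ones. The ranges stood just apart in both genotypes. It rose by 0.37 ± 0.11 in ApoE-/- (1.29-fold, adjusted p = 0.0116) and by 0.33 ± 0.11 in wild type (1.26-fold, adjusted p = 0.0163). Under equal-median scaling the wild-type rise was 0.51 (adjusted p = 0.00512), or 0.29 relative to the median of all probes. Within batches the ApoE-/- rise in batch 2 (0.26, adjusted p = 0.244) and the wild-type rise in batch 1 (0.26, adjusted p = 0.128) did not pass.

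Irf3 probe 2 (ILMN_1224505) differed by -0.04 in ApoE-/- (adjusted p = 0.848) and fell in wild type, with 7.50, 7.32, 7.28, 7.44 and 7.30 in treated livers, against 7.77, 7.43, 7.97, 7.80 and 7.54 in untreated ones, which overlapped. The fall was 0.33 on the log2 scale, with an SE of 0.12 (adjusted p = 0.0284). Equal-median scaling gave a difference of 0.06 (adjusted p = 0.78), which was -0.15 relative to the median of all probes under it. Without background correction the fall was 0.22 on the log2 scale (adjusted p = 0.0172). The fall did not pass within batch 1 (-0.36, adjusted p = 0.106) or batch 2 (-0.30, adjusted p = 0.176), nor without any 1 of treated replicates 2, 3 and 5 or untreated replicates 1, 3 and 4 (adjusted p up to 0.0889). Probe 3 differed by -0.27 in ApoE-/- (adjusted p = 0.343) and -0.28 in wild type (adjusted p = 0.282). The direction of Irf3 thus depended on the probe.

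Irf2 and Irf9 did not pass in either genotype. Irf2, which can act as a repressor of interferon-responsive genes, averaged 11.85 ± 0.19 in treated and 11.97 ± 0.19 in untreated ApoE-/- livers, and 11.77 ± 0.19 in treated and 11.75 ± 0.08 in untreated wild-type livers (SD, n = 5 each). Its differences of -0.13 (95% interval -0.37 to 0.11, adjusted p = 0.458) and 0.02 (-0.22 to 0.26, adjusted p = 0.902) exclude changes the size of those of Irf1 or Irf7. Irf9, the DNA-binding partner of STAT2, averaged 8.51 ± 0.30 in treated and 8.34 ± 0.27 in untreated ApoE-/- livers, and 8.71 ± 0.29 in treated and 8.43 ± 0.30 in untreated wild-type livers (SD, n = 5 each).

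The Irf9 groups overlapped, and in all groups replicates 4 and 5 were the highest arrays. Irf9 probe 1 differed by 0.17 ± 0.17 in ApoE-/- (adjusted p = 0.523) and by 0.29 ± 0.17 in wild type (adjusted p = 0.213). With the replicate number as a block the wild-type difference of 0.29 passed (adjusted p = 0.028), as it did with batch as a block (adjusted p = 0.0278) and under equal-median scaling (0.61, adjusted p = 0.0158, or 0.39 relative to the median of all probes). Its second probe, detected on 8 of 20 arrays, differed by -0.21 in ApoE-/- (adjusted p = 0.394) and 0.13 in wild type (adjusted p = 0.594). Irf4, the factor of plasma cells and activated lymphocytes, averaged 4.43, 4.58, 4.47 and 4.40 in treated ApoE-/-, untreated ApoE-/-, treated wild-type and untreated wild-type livers, below detection on every array.

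**Figure D3:**
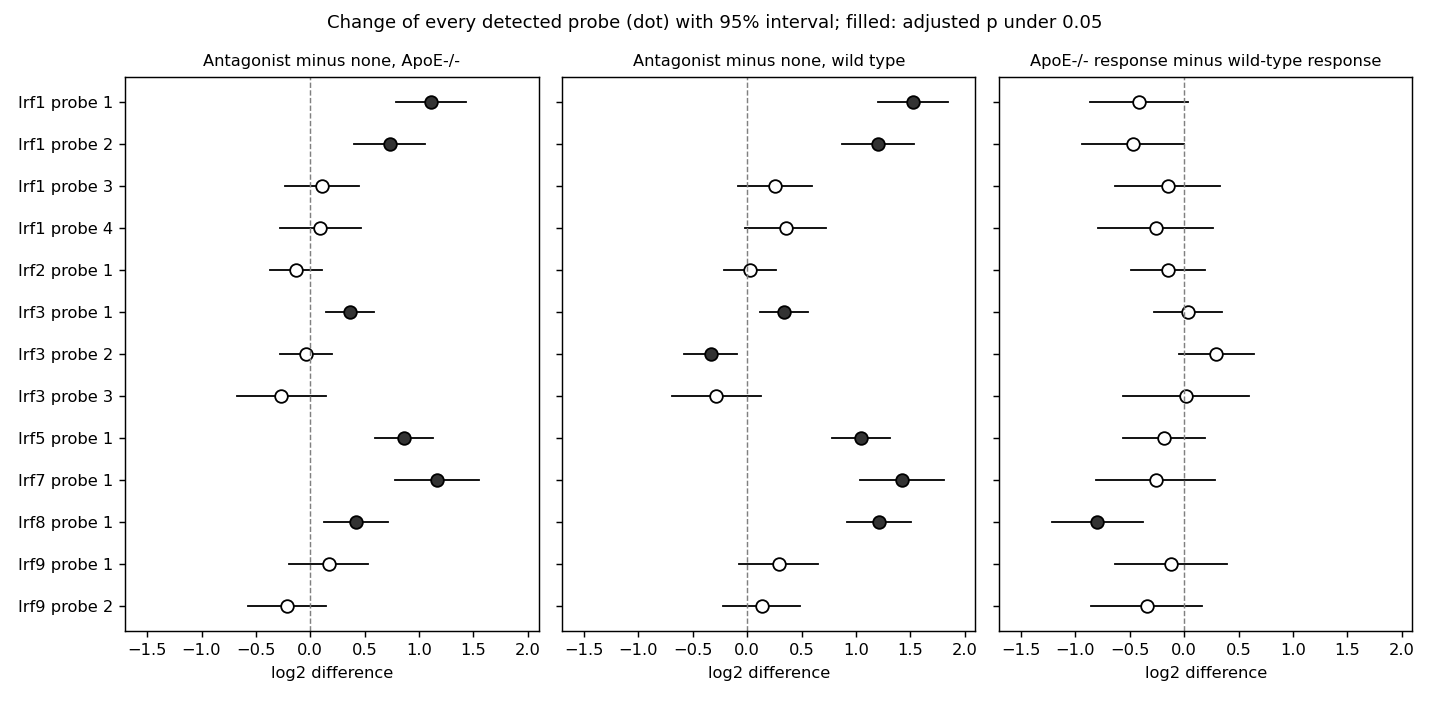
Log2 difference of each of the 13 measured probes (dots, with 95% intervals) for antagonist minus none in ApoE-/- and wild type and for the ApoE-/- response minus the wild-type response, filled where the adjusted p was under 0.05. The 6 upward probes are those of Irf1 (2), Irf3, Irf5, Irf7 and Irf8 in both genotypes, and Irf8 is the 1 filled probe in the right panel.

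Whether the response differed between genotypes was tested as the ApoE-/- change minus the wild-type change. Irf8 was the 1 family probe of 13 to pass, at -0.80 ± 0.20 (adjusted p = 0.0368), against 2.33% of all probes in either direction and 1.57% in this one. The fold change in ApoE-/- was smaller by a factor of 1.74. The other measured probes had differences between -0.47 (Irf1 probe 2, 95% interval -0.94 to -0.00, adjusted p = 0.345) and 0.29 (Irf3 probe 2, -0.05 to 0.64, adjusted p = 0.447). For Irf7 the interval was -0.81 to 0.29 and for Irf5 -0.56 to 0.20, so smaller responses in ApoE-/- of up to those sizes could not be told from equal ones. Without treated ApoE-/- replicate 1 the difference of Irf1 probe 2 was -0.65 (adjusted p = 0.04).

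The Irf8 difference was near the threshold. It kept its sign in every setting tried and ran from -0.89 to -0.70 when any 1 array was left out, but passed in 9 of those 20 fits (adjusted p from 0.0182 to 0.0797). It did not pass without any 1 of treated wild-type replicates 2 to 5, untreated wild-type replicates 1 and 3, treated ApoE-/- replicates 3 and 5 or untreated ApoE-/- replicates 1 to 3. Within batch 1 it was -0.85 (adjusted p = 0.127) and within batch 2 -0.72 (adjusted p = 0.234). Without background correction it was -0.40 (adjusted p = 0.0733), in the authors' processed values -0.43 (adjusted p = 0.062), and with all 45281 probes tested -0.80 (adjusted p = 0.065). Under equal-median scaling it was -1.11 (adjusted p = 0.0142), of which -0.19 was the median of all probes, and 6.33% of called probes were then higher, against 32.6% after quantile normalization. With the replicate block the calls among all probes numbered 666, against 426 without it.

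**Figure D4:**
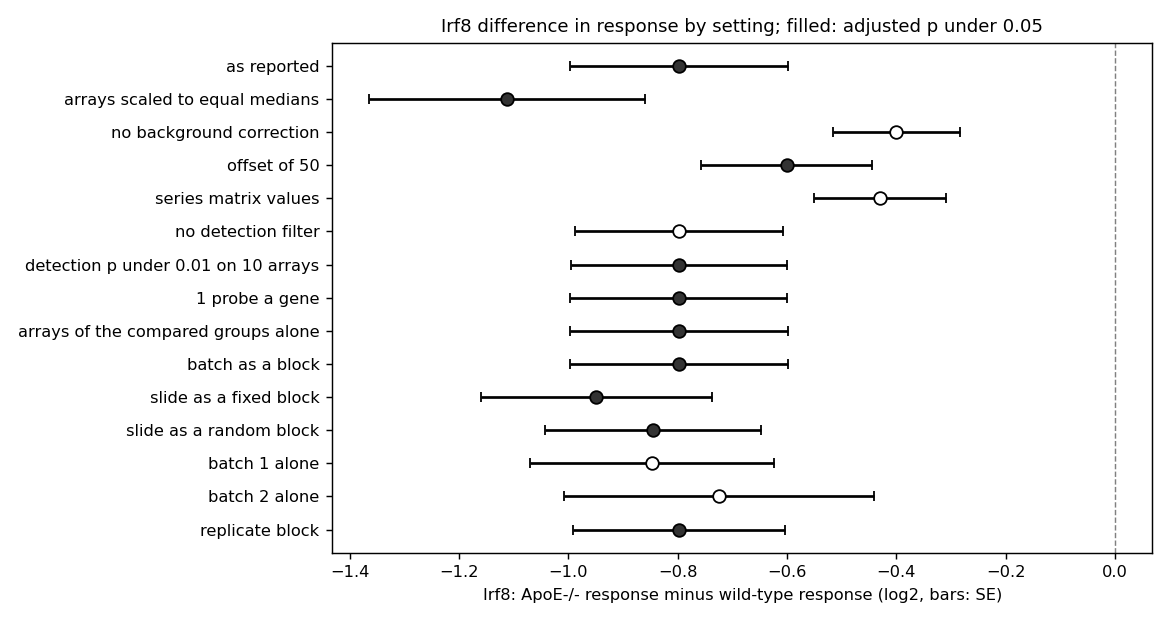
Irf8 response in ApoE-/- minus that in wild type (log2, points with SE bars) in each processing setting, filled where the adjusted p was under 0.05. Every value is below 0, from -1.11 with arrays scaled to equal medians to -0.40 without background correction, and 5 of the settings shown as open points did not pass.

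Untreated ApoE-/- livers already had more Irf8 signal than untreated wild-type livers. The values were 7.67, 7.61, 7.71, 7.47 and 7.35 in untreated ApoE-/-, against 6.06, 6.62, 6.28, 6.57 and 6.68 in untreated wild type, with no overlap. The difference was 1.12 ± 0.14 (2.17-fold, adjusted p = 2.39e-05), and Irf8 was the 1 family probe of 13 to pass, against 4.67% of all probes (3.41% higher and 1.25% lower). Ranges stood apart upward for 3.91% of all probes. It was 1.34 within batch 1 (adjusted p = 0.000198) and 0.78 within batch 2 (adjusted p = 0.134), where the untreated ApoE-/- arrays lay on a slide of their own. Without background correction it was 0.62 (adjusted p = 5.6e-05), and in the authors' processed values 0.66 (adjusted p = 3.59e-05). Irf7 differed by 0.39 (adjusted p = 0.326), Irf5 by 0.23 (adjusted p = 0.434) and Irf1 probe 1 by -0.14 (adjusted p = 0.749). Irf3 probe 1 was lower on all 5 untreated ApoE-/- arrays than on any wild-type one, by 0.26, but missed the threshold (adjusted p = 0.221), and 2.05% of all probes stood apart in that direction. Of the called probes 73.2% were higher in ApoE-/-, or 85.2% with arrays scaled to equal medians.

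Among treated livers the 2 brighter Irf1 probes fell in ApoE-/- relative to wild type. Probe 1 averaged 9.95 ± 0.41 in treated ApoE-/- and 10.51 ± 0.13 in treated wild-type livers (SD, n = 5 each), a difference of -0.55 ± 0.15 (1.47-fold lower, adjusted p = 0.0423). Probe 2 read 8.44, 7.68, 7.54, 7.56 and 7.48 in treated ApoE-/-, against 8.16, 8.32, 8.65, 8.45 and 8.56 in treated wild type. Of the treated ApoE-/- arrays 4 lay below all wild-type ones, and replicate 1 lay among them. The difference was -0.69 ± 0.16 (1.61-fold lower, adjusted p = 0.0156), and these were 2 of 13 probes, against 4.41% of all probes (2.56% higher and 1.84% lower). No family probe stood apart between the treated groups, as 2.17% of all probes did upward and 2.02% downward. Neither probe passed when the arrays of these 2 groups were fitted alone (adjusted p = 0.123 and 0.0643) or within batch 1 (-0.36 and -0.49, adjusted p = 0.421 and 0.369), while both passed within batch 2 (-0.84 and -0.98, adjusted p = 0.0293 and 0.0113). When 1 array was left out, probe 1 passed without treated ApoE-/- replicate 1, untreated ApoE-/- replicates 1 and 5 or untreated wild-type replicate 5, and not without any other array (adjusted p up to 0.122).

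Irf8 did not pass between treated genotypes, at 0.32 ± 0.14 (adjusted p = 0.255). In order of mean signal Irf8 stood at 7.98 ± 0.21 in treated ApoE-/-, 7.66 ± 0.25 in treated wild-type, 7.56 ± 0.15 in untreated ApoE-/- and 6.44 ± 0.26 in untreated wild-type livers (SD, n = 5 each), and the first 3 groups overlapped with their neighbours in that order. Of the called probes 58.2% were higher in treated ApoE-/- livers, but 27.7% with arrays scaled to equal medians, which moved the median of all probes by -0.11. Relative to that median (-0.13) Irf1 probe 1 then differed by -0.50 and probe 2 by -0.70. With the replicate block 1241 of all probes were called, against 806 without it. The comparisons share groups of arrays and are not independent.

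The sensors and kinases that act before the factors were measured for 20 genes of the list. In ApoE-/- livers 9 rose and 0 fell (median 0.18, against -0.02 for all probes, of which 14.2% rose and 14.9% fell). In wild type 9 rose and 1 fell (median 0.41, against -0.03 for all probes, of which 18.9% rose and 18.4% fell). The rises in both genotypes include Tlr8 and Ticam2, which no untreated array detected and which passed the filter through the treated groups alone. The bounds were at least 1.16-fold in ApoE-/- and 1.21-fold in wild type for Tlr8, and 1.18-fold and 1.07-fold for Ticam2. Unc93b1, which carries nucleic acid-sensing Toll-like receptors to endosomes, rose by 1.00 in ApoE-/- (adjusted p = 2.9e-05) and 1.50 in wild type (adjusted p = 6.35e-08). Tlr7, a receptor the antagonist is directed at, rose by 0.52 (adjusted p = 0.0345) and 1.35 (adjusted p = 4.51e-06), and Myd88, its adaptor, by 0.87 (adjusted p = 0.000626) and 0.82 (adjusted p = 0.000724). Tlr7 was also 1.07 higher in untreated ApoE-/- than in untreated wild-type livers (adjusted p = 0.000633), where its probe was detected on 5 of 5 and 1 of 5 arrays, so that both values against untreated wild type are taken against signal mostly at background. Cgas, a cytosolic DNA sensor, rose by 1.25 with antagonist in wild type (adjusted p = 4.23e-05), where no untreated array detected it. Its rise there is therefore given as a bound of at least 1.73-fold, which was not itself tested. Traf6 was the gene that fell in wild type, by 0.26 (adjusted p = 0.0326). The Tlr9 probes were detected on 0 and 1 of 20 arrays and gave no comparison.

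Interferon genes, chosen after their values were seen, were near or below detection. Of 18 probes for 11 of these genes 3 passed the filter. They were 2 of Ifna1, each detected on 10 of 20 arrays, and 1 of Ifnab, on 17. The probes of Ifnb1 and Ifng were detected on 0 of 20 arrays.

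Receptors, JAK-STAT components and feedback genes were measured for 14 genes. In ApoE-/- 5 rose and 1 fell (median 0.25, all probes 14.2% and 14.9%), and in wild type 8 rose and 0 fell (median 0.52, all probes 18.9% and 18.4%). Ifnlr1, which rose in both, was detected on 5 of 5 treated and 1 of 5 untreated arrays in each genotype. Stat2, the partner of IRF9, rose by 0.76 in ApoE-/- (adjusted p = 0.000281) and 0.56 in wild type (adjusted p = 0.00266). Ptpn6, a phosphatase of blood cells, rose by 1.60 (adjusted p = 1.03e-05) and 2.14 (adjusted p = 8.48e-08). Jak2 fell by 0.51 in ApoE-/- (adjusted p = 0.00434). Socs3, a feedback inhibitor of cytokine receptors, rose by 0.79 in ApoE-/- (adjusted p = 0.0299) and 2.85 in wild type (adjusted p = 5.32e-08). Of the 14 genes 2 had a lower response in ApoE-/-, against 1.57% of all probes. They were Socs3 (-2.05, adjusted p = 0.00576) and Ifngr1 (-0.89, adjusted p = 0.023). In untreated livers both were already higher in ApoE-/-, by 0.95 and 0.64 (adjusted p = 0.0451 and 0.00884), against 3.41% of all probes.

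Partners and corepressors were measured for 17 genes. In ApoE-/- 8 rose and 1 fell (median 0.24, all probes 14.2% and 14.9%). In wild type 7 rose and 2 fell (median 0.24, all probes 18.9% and 18.4%). The rises in both genotypes include Runx1 and Batf, which no untreated array detected and which passed the filter through the treated groups alone. The bounds were at least 1.26-fold in ApoE-/- and 1.63-fold in wild type for Runx1, and 1.76-fold and 2-fold for Batf. Spi1, which rose in wild type, was detected on no untreated wild-type array (at least 2.37-fold). Batf3, which works with IRF8 in dendritic cells, rose by 1.81 in ApoE-/- (adjusted p = 6.08e-06) and 2.42 in wild type (adjusted p = 4.18e-08), although its probe was detected on 1 of 5 untreated arrays in each genotype, so that these values are taken against signal mostly at background. Ikzf1, a lymphoid and myeloid factor, rose by 1.38 (adjusted p = 1.51e-05) and 2.26 (adjusted p = 8.67e-09), and was detected on 4 of 5 untreated wild-type arrays. Kat2b, an acetyltransferase that acts with IRFs, fell by 1.02 (adjusted p = 2.6e-06) and 0.58 (adjusted p = 0.000442), and Irf2bp2, a corepressor of IRF2, fell by 1.15 in wild type (adjusted p = 0.00766).

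Genes known to respond to interferon through IRF9 and IRF7 were measured for 20 members. In ApoE-/- 8 rose and 0 fell (median 0.47, all probes 14.2% and 14.9%), and in wild type 14 rose and 0 fell (median 0.93, all probes 18.9% and 18.4%). Oas2, which rose in both, was detected on 5 of 5 treated arrays in each genotype. It was detected on 1 of 5 untreated ApoE-/- and 0 of 5 untreated wild-type arrays. Ifi27l2a rose by 1.29 in ApoE-/- (adjusted p = 6.63e-06) and 2.25 in wild type (adjusted p = 1.2e-09), and Oasl2, an oligoadenylate synthetase-like protein, by 1.09 (adjusted p = 2.64e-05) and 2.12 (adjusted p = 1.71e-09). Trim30a rose by 0.55 (adjusted p = 0.00973) and 1.67 (adjusted p = 4.16e-08). Of the 20 the response was smaller in ApoE-/- for 4, against 1.57% of all probes lower in this contrast, namely Ifit2 (-1.19, adjusted p = 0.00467), Trim30a (-1.12, adjusted p = 0.00855), Oasl2 (-1.03, adjusted p = 0.0158) and Ifi27l2a (-0.97, adjusted p = 0.0271). The same 4 were higher in untreated ApoE-/- than in untreated wild-type livers, by 0.97 to 1.08, as Irf8 was (3.41% of all probes were higher), and these comparisons share the untreated groups.

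Targets of IRF1 in antigen presentation and the guanylate-binding and immunity-related GTPases were measured for 21 genes. In ApoE-/- 10 rose and 0 fell (median 0.33, all probes 14.2% and 14.9%), and in wild type 10 rose and 1 fell (median 0.47, all probes 18.9% and 18.4%). Casp1, the inflammasome protease, rose by 1.54 in ApoE-/- (adjusted p = 3.44e-06) and 2.36 in wild type (adjusted p = 3.02e-09), and Gbp3 by 1.14 (adjusted p = 7.12e-05) and 0.99 (adjusted p = 0.000162). Gbp2 rose by 1.34 (adjusted p = 0.000163) and 1.28 (adjusted p = 0.000152). Psme2, a proteasome activator subunit, fell by 0.61 in wild type (adjusted p = 0.00279), where 3 of 5 treated and 5 of 5 untreated arrays detected it. Of the 21, 1 response differed between genotypes, against 2.33% of all probes, that of Vcam1, an endothelial adhesion molecule (-0.98, adjusted p = 0.0343).

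Myeloid genes linked to IRF8 and IRF5 were measured for 11 members. In ApoE-/- 8 rose and 0 fell (median 1.13, all probes 14.2% and 14.9%). In wild type 10 rose and 0 fell (median 1.73, all probes 18.9% and 18.4%). The wild-type rises include Cx3cr1 and Il6, which no untreated wild-type array detected. Ctss, a lysosomal protease, rose by 1.46 in ApoE-/- (adjusted p = 1.42e-06) and 2.66 in wild type (adjusted p = 1.46e-10), and its response differed between genotypes (-1.20, adjusted p = 0.0055). Ccl5, a chemokine, rose by 2.76 (adjusted p = 3.15e-08) and 2.45 (adjusted p = 1.39e-08). Ncf4, a subunit of the phagocyte oxidase, rose by 2.08 (adjusted p = 1.37e-05) and 3.15 (adjusted p = 2.24e-08), with detection on 3 of 5 untreated wild-type arrays. In untreated livers Ctss (1.41, adjusted p = 3.74e-06), Csf1r (0.73, adjusted p = 0.0156) and Aif1 (0.82, adjusted p = 0.0019) were higher in ApoE-/-. Of 4 measured lymphoid genes linked to IRF4, Cd79b, a B cell receptor chain, rose by 2.00 in ApoE-/- (adjusted p = 8.09e-06) and 2.62 in wild type (adjusted p = 7.88e-08), with its probe detected on 1 of 5 untreated arrays in each genotype. Cd86 rose by 0.42 and 0.41 (adjusted p = 0.0202 and 0.0179), and Xbp1 fell by 0.43 in ApoE-/- (adjusted p = 0.0317).

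**Figure D5:**
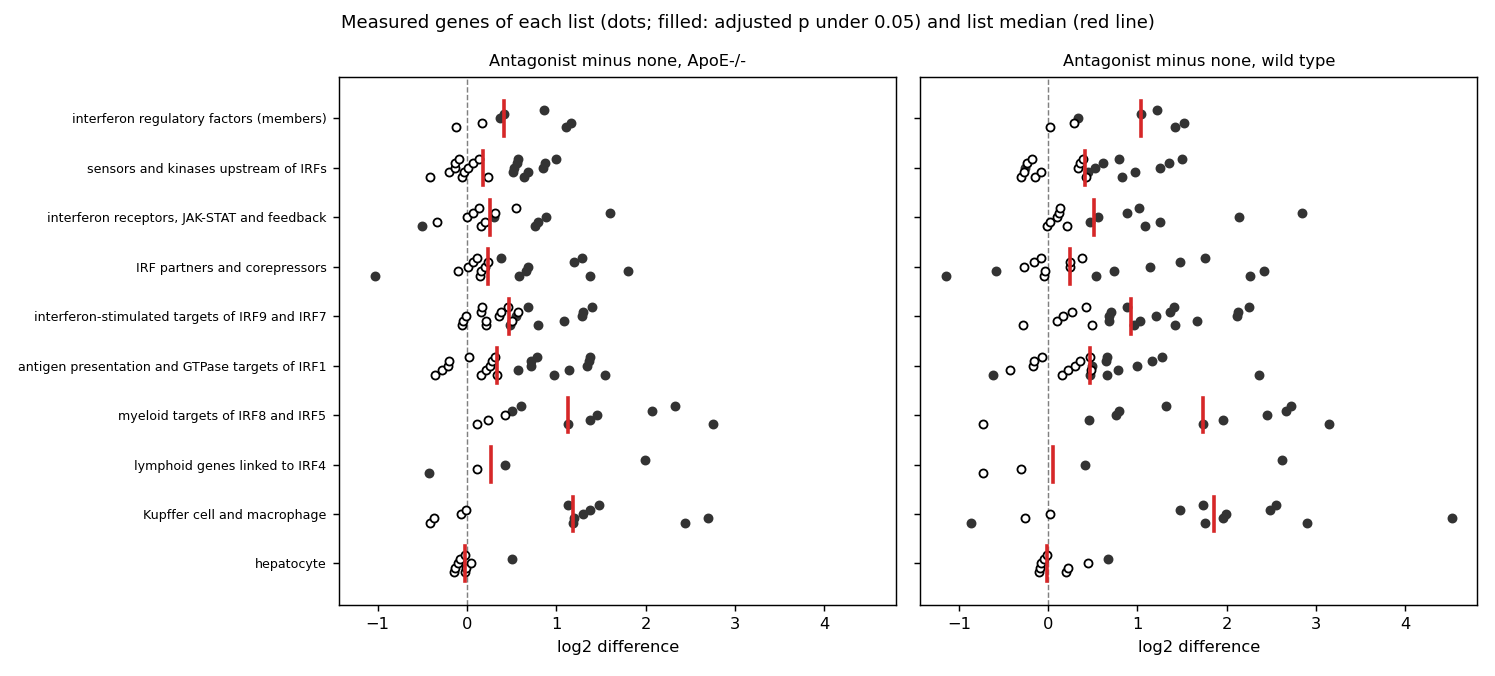
Log2 difference, antagonist minus none, of the measured genes of each list (dots, filled where the adjusted p was under 0.05, 1 probe a gene) with the list median (red line), in ApoE-/- and wild type. The myeloid list has medians of 1.13 and 1.73 and the Kupffer cell and macrophage markers 1.19 and 1.86, while the hepatocyte markers have medians of -0.03 and -0.02, with Cps1 filled in both panels.

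Most markers of Kupffer cells and macrophages also rose with antagonist, while those of other cells varied by list and genotype. Of 12 measured Kupffer cell and macrophage markers 8 rose and 0 fell in ApoE-/- (median 1.19, all probes 14.2% and 14.9%) and 9 rose and 1 fell in wild type (median 1.86, all probes 18.9% and 18.4%), where Fcer1g rose by 4.52 (adjusted p = 1.46e-10) and Timd4 fell by 0.86 (adjusted p = 0.00257). Clec4f, a marker of resident Kupffer cells, differed by -0.07 in ApoE-/- (adjusted p = 0.836) and -0.26 in wild type (adjusted p = 0.319). Their summed signal ran from 12790 to 23270 in treated ApoE-/-, from 8859 to 11130 in untreated ApoE-/-, from 14380 to 19310 in treated wild-type and from 2851 to 4494 in untreated wild-type livers, without overlap between treated and untreated. Cd5l did not pass the filter. Csf1r and Aif1 stand both here and in the myeloid list. In untreated livers 10 of the 12 were higher in ApoE-/- (median 1.26, 3.41% of all probes higher), beside the higher Irf8, and 4 had a smaller response in ApoE-/- (1.57% of all probes lower).

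The other marker lists, in ApoE-/- and then in wild type, rose for 2 and 4 of 4 monocyte, 3 and 2 of 4 dendritic cell, 2 and 3 of 4 plasmacytoid dendritic cell, 5 and 4 of 5 T and NK cell, 1 and 6 of 8 neutrophil, 1 and 4 of 6 endothelial and 1 and 1 of 9 hepatocyte markers, and none of these fell. Beside these counts, 14.2% of all probes rose in ApoE-/- and 18.9% in wild type. The counts leave out markers that did not pass the filter: Ccr2 and F13a1 (monocyte) and Flt3, Xcr1, Cd209a and Ccr7 (dendritic cell). Also left out were Ccr9 (plasmacytoid), Cd8a, Cd4, Ncr1 and Klrb1c (T and NK cell) and Kdr (endothelial). Itgax, Batf3, Cd3d and Cd3g were detected on 5 of 5 treated arrays in each genotype and on 0 or 1 of 5 untreated ones. Cd3e was detected on 5 of 5 treated arrays in each genotype, 1 of 5 untreated ApoE-/- and 2 of 5 untreated wild-type arrays. Nkg7 was detected on 5 treated ApoE-/- and 2 treated wild-type arrays and on no untreated one. These markers thus passed mostly through the treated groups, where they are high, and their rises are taken against signal mostly at background. The hepatocyte marker that rose was Cps1, a urea cycle enzyme, by 0.51 in ApoE-/- (adjusted p = 0.0127) and 0.68 in wild type (adjusted p = 0.00109). B cell markers were measured by Cd79b alone. The summed dendritic cell signal was 175.3 to 353.9 in treated ApoE-/-, 97.13 to 109.8 in untreated ApoE-/-, 253.5 to 418.2 in treated wild-type and 86.4 to 98.29 in untreated wild-type livers. In untreated wild-type livers the monocyte markers Ly6c1, Cx3cr1 and Chil3 and the dendritic cell markers Clec9a, Itgax and Zbtb46 were detected on no array. The same held there for Siglech and Klk1 (plasmacytoid) and Mpo, Camp and Retnlg (neutrophil). The part of these cells in the changes of the family was not tested, and in whole liver more cells of a type and more RNA per cell cannot be told apart.

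Likeness between family members was described by Pearson's r over the 20 arrays, which share the 4 groups. Irf5 and Irf7 had an r of 0.92, which was 0.41 for deviations from the group means. Irf1 and Irf3 had 0.87, and 0.75 within groups. Irf1 and Irf5 had 0.81, but -0.15 within groups, so their likeness lay in the group means. Irf7 and Irf9 had 0.52 over all arrays and 0.60 within groups. Among 10355 named genes outside the family, the nearest to Irf1 were Dock6 (0.97, within groups 0.81), Tmem256 (0.96) and Sirt7 (0.95). The nearest to Irf8 were Abcg1, a cholesterol exporter (0.95, within groups 0.66), Il10rb, a subunit of interferon lambda and interleukin 10 receptors (0.95), and Clec4n (0.95). Irf5 was nearest to Pilrb1 (0.95), Irf7 to Itga9 (0.96), Irf3 to Mrm1 (0.92), Irf9 to Tceanc2 (0.86) and Irf2 to Xpo7 (0.80).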

How the data were processed

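Mouse liver RNA was measured on 20 Illumina BeadChip arrays. The deposited non-normalized table gives a signal intensity on a linear scale and a detection p-value per probe and array, and the authors' series matrix holds processed intensity values of the same arrays, used as an alternative. The submitters' processing notes name the programs GenomeStudio and BeadStudio. Array means were equal within sets of genotype and batch, so arrays had been scaled before deposit by a step not given in the sources used here. Probes were named from the platform table, with symbols updated through RefSeq.

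Log2 signal was computed from the deposited intensities by neqc of limma 3.58.1 (R 4.3.3), with normexp background from detection p-values, quantile normalization and an offset of 16. The 18285 probes that reached a detection p below 0.05 on 5 or more arrays were fitted with 4 group means (16 residual degrees of freedom) and tested in 5 contrasts with Benjamini-Hochberg adjustment. Lists used the probe of highest mean per symbol. A gene detected on no array of a group is given as a bound: the brighter group's mean over a floor, set for each array at its lowest detected signal or the gene's own value, whichever was higher. All members were named, with up to 3 called genes of each list by adjusted p, and Tlr7, Tlr9, Myd88 and Stat2 always. The text leaves out part of these. Probe likeness named the nearest 3 genes. Members and lists were chosen with earlier results of these data known. Precision is limited by having 5 arrays a group.

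Batches were read from column names. In batch 2 the untreated ApoE-/- arrays lay on a slide of their own. Column names of the other batch give no slide, and its arrays were entered in the slide settings as if on the same slide. Replicate numbers come from the labels, which do not say what they mark. Deviations from group means correlated over 0.1 in every same-numbered pair in ApoE-/- (0.18 to 0.427), in wild type (0.312 to 0.401) and between treated genotypes (0.118 to 0.264). Between untreated genotypes 4 of 5 did so (-0.002 to 0.47). Of all same-numbered pairs 27 of 30 were over 0.1 (median 0.268), as were 24 of 48 pairs of other number in the same batch (median 0.102). The reported tests did not use the numbers, which entered as a block in an alternative setting only. On simulated data 200 of 18285 probes were changed, in treated wild-type arrays alone, with noise that had no batch or replicate structure. In the wild-type contrast 25.5%, 90% and 99.5% were called at log2 changes of 0.5, 1 and 2. For the difference between genotypes the shares were 0%, 57.5% and 98%. In the data 6819 probes were called in the wild-type contrast, which makes the adjustment more lenient. The simulated shares therefore do not give the power of the tests above. Alternatives covered normalization, background, offset, source, filters, probes per gene, the samples fitted, batch, slide and replicate blocks, and each array left out.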

Additional observations from a re-analysis of the deposited data

Results flagged for a closer look

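Of 52 sets of 5 arrays (13 probes in 4 groups), 4 held an array set apart from the rest of its group, its gap to the nearest array divided by the group's range exceeding Dixon's critical value of 0.71. Chance gives this in about 1 in 20 sets. For Irf8 it was treated ApoE-/- replicate 5, at 7.61 against 8.02 for the next array (ratio 0.797). For Irf1 probe 2 it was treated ApoE-/- replicate 1, at 8.44 against 7.68 (ratio 0.794). For Irf1 probe 4 it was treated wild-type replicate 4, at 4.57 against 5.11 (ratio 0.855). For Irf3 probe 1 it was treated wild-type replicate 1, at 10.29 against 10.47 (ratio 0.759).

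The antagonist response of Irf8 differed between genotypes by -0.80 (ApoE-/- minus wild type, adjusted p = 0.0368). It was 1 of 13 family probes, against 2.33% of all probes in either direction and 1.57% lower. The call was lost in 5 of 14 alternative settings, and also in some of the fits with 1 array left out.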

How the results depend on the processing

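Of 865 values of single probes recomputed in settings other than leaving out an array, 837 kept their call and, where called, their direction, 21 lost the call, 6 gained it and 1 reversed: Irf3 probe 2 in wild type, 0.0647 with equal-median scaling, which shifted all probes, and -0.15 relative to their median. The number of family probes called fell to 3 for the ApoE-/- response in batch 2 alone. Between treated genotypes it was 1 without the detection filter, and 0 in the compared groups alone or batch 1 alone. With 1 probe a gene it was also 1, but there Irf1 probe 2 was not tested and probe 1 still passed (adjusted p = 0.0383). Between untreated genotypes it was 0 in batch 2 alone. For the difference between genotypes it was 0 without background correction, in the series matrix values, without the filter, and in batch 1 or batch 2 alone.

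Among all probes, batch 2 alone gave 1356 calls in ApoE-/-, 4479 in wild type, 166 between untreated genotypes and 233 for the difference. Batch 1 alone gave 301 between treated genotypes and 161 for the difference. Batch as a block gave 1211 and 650 for these, and the replicate block 1241 and 666. The compared groups alone gave 402 between treated genotypes, and the difference had 664 with equal medians and 274 without the filter.

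Leaving out 1 array gave 5 to 6 family probes called in ApoE-/-, 6 to 8 in wild type, 1 to 2 between treated and 1 to 1 between untreated genotypes, and 0 to 2 for the difference. All-probe calls ran over 4511 to 5816, 6097 to 6947, 522 to 1193, 680 to 935 and 251 to 659. The extremes furthest from the full count for the difference were without treated wild-type replicate 4 (251) and treated ApoE-/- replicate 1 (659). The replicate block changed 1 family call, Irf9 probe 1 in wild type. The causes were not tested. Probes with signal near background, such as Irf1 probes 3 and 4, Irf9 probe 2 and Irf4, limit what can be detected.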
